A study of Monodelphis domestica and Mus musculus with 26 samples.

Results

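The 10 genes described here mark Sertoli cells, the somatic nurse cells of the seminiferous tubule, or make and receive their hormonal signals: SOX9, WT1, GATA4, AMH, INHA, INHBA, INHBB, DHH, FSHR and CLDN11. They were found by symbol, without regard to case, in the gene names of the deposited tables. All 10 were matched among 32532 mouse features. In opossum 7 were matched, both among 32251 single-cell features, of which 11523 carry a name, and among 34985 genes of the bulk tables. Opossum AMH, CLDN11 and DHH were not analysed here.

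The series holds 26 libraries of testis. Droplet single-cell RNA sequencing (10x Genomics 3′ chemistry) was made from whole dissociated testes of adult mice (C57BL6/J, 8 to 16 weeks old, 3 libraries) and of adult gray short-tailed opossums (Monodelphis domestica, 3 libraries), with no treatment. Bulk RNA sequencing was made from opossum testis at 1 month (2 libraries), 2 months (4), 3 months (4), 4 months (3) and adulthood (7). PolyA RNA was selected for 16 of the 20 bulk libraries and rRNA was depleted for the other 4, namely 2-month replicates 2, 3 and 4 and adult replicate 2. No genetic change or strain is given for the opossums. Nothing in the labels says which libraries came from separate animals, so that p-values measure only the spread between these samples, which may be technical.

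Sertoli cells form from supporting-cell precursors of the fetal gonad, where SOX9 directs the testis fate and WT1 and GATA4 are needed before and after it. While immature they divide and secrete AMH, which removes the Müllerian ducts. At puberty they stop dividing, close the blood-testis barrier with the tight junction protein CLDN11 and lower AMH, while FSH from the pituitary acts through FSHR and inhibin, a dimer of INHA with an INHBA or INHBB chain, feeds back on FSH. DHH is the hedgehog ligand by which Sertoli cells signal to Leydig and peritubular cells.

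The upstream sequence of mouse Fshr is shown because the FSH receptor is the hormonal entry point of the list and, of the named mouse classes described next, was highest in the Sertoli-like one. It runs over the 250 bases before the GENCODE vM39 gene start in GRCm39, 5′ to 3′ on the strand of the gene, at chr17:89508140-89508389 (minus strand), with no other annotated gene over the window. Capitals mark the E-box CACGTG.
Fshr: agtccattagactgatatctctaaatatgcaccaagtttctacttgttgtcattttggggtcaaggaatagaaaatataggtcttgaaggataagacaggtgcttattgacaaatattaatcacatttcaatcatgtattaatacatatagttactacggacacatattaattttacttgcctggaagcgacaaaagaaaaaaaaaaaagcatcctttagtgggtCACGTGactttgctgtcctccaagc
The match lies 25 to 20 bases before the start. Searched on both strands, CACGTG stands in 5.69% of 21770 such windows of protein-coding genes. A match describes letters only, and no binding was measured.

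The single-cell matrices held 10861 to 13451 barcodes a library in mouse and 10916 to 12856 in opossum, with 45395185 to 65263953 and 22710048 to 37747724 estimated UMIs (unique molecular identifiers, each standing for 1 captured transcript). After filtering, 7208 to 8714 and 5126 to 7476 cells remained, at median depths of 2763 to 4438 and 1619 to 2296 UMIs. At most 198 barcodes (1.82%) were shared between any pair of libraries of 1 species. Bulk libraries had 2.90 to 7.12 aligned gigabases. Among the polyA libraries of 3 months and older, 4-month replicate 3 and adult replicates 1 and 3 stood apart, with a median correlation to the others of 0.837, 0.834 and 0.879 over all tested genes except the 10, against at least 0.929 in the rest. The first of them had 16566 genes above 0, the fewest of the 20, and mitochondrial genes took 39.9% of the TPM (transcript abundance scaled per length and to the same total in every library) of adult replicate 1.

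Cells were clustered and the clusters named in each species without the 10 genes, so that their levels in the classes are no product of the naming. In mouse 1 cluster was Sertoli-like, led by Cst9, Cst12, Gatm and Tsx and with 24 of the 29 matched markers past the rule. It held 702, 147 and 171 cells of replicates 1, 2 and 3 (9.38%, 2.04% and 1.96% of kept cells). In opossum only 12 of the markers had a named counterpart, and 2 clusters were Sertoli-like. Cluster 2, with 1852 cells, rested on PROS1, GATM, DMRT1 and KITLG, and cluster 19, with 234 cells, on these and on NR5A1 and TJP1. None of these markers was among the 10 leading genes of either cluster, so the opossum name rests on less. The class held 960, 1036 and 90 opossum cells (18.7%, 13.9% and 1.22%). In opossum replicate 3, 50 of the 90 came from cluster 19, against 24 of 960 in replicate 1 and 160 of 1036 in replicate 2.

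Levels are given as CPM, the UMIs of a gene summed over a class and library and scaled to the same total for all genes. They follow the 3′ ends annotated in each species, whose part in any species difference was not tested. Genes are compared here across classes within a species, and this comparison is a description with no test.

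SOX9, the transcription factor of the Sertoli fate (mouse chr11:112673009-112678586, opossum chromosome 2), stood at 37.8, 22.5 and 159 CPM in replicates 1, 2 and 3 of the mouse Sertoli-like class (73.0 ± 74.5, SD, n = 3). Its next class, peritubular or stromal, had 4.42 CPM and no library above 11.1. In opossum the Sertoli-like class had 55.3, 37.9 and 25.7 CPM (39.6 ± 14.9, SD, n = 3), and no named class besides it exceeded a mean of 2.24. In both species the lowest Sertoli-like library lay above the highest library of every other named class. The level varied several-fold among the mouse libraries, and replicate 3 was the highest.

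WT1, a zinc-finger factor that keeps the Sertoli fate (mouse chr2:104956625-105003961, opossum chromosome 5), had 155, 102 and 561 CPM in mouse (273 ± 251, SD, n = 3) and 249, 325 and 472 CPM in opossum (349 ± 113, SD, n = 3). It was not confined to this class. The opossum endothelial-like class reached 160, 92.7 and 237 CPM, nearly all of it in cluster 20 (288, 167 and 305 CPM). In mouse an unnamed cluster that mixed endothelial and immune markers had 263, 249 and 58.5 CPM. Opossum germ-cell classes had mean WT1 levels of 3.32 to 23.1 CPM, and mouse germ-cell classes 0.157 to 3.09. These low levels were not compared with free RNA in the droplets and are not read as expression.

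GATA4, a zinc-finger factor of several gonadal somatic lineages (mouse chr14:63436362-63509141, opossum chromosome 1), did not separate the Sertoli-like class in either species. Mouse Sertoli-like libraries had 37.9, 22.8 and 206 CPM (89.0 ± 102, SD, n = 3), which span the 93.6, 108 and 78.1 CPM of the peritubular or stromal class and the 95.5, 51.1 and 55.0 CPM of the Leydig-like class. Opossum levels were 132, 202 and 396 CPM in the Sertoli-like, 171, 157 and 289 in the Leydig-like and 159, 158 and 157 in the peritubular or stromal class. Germ-cell classes had mean levels of at most 4.90 CPM in mouse and 5.60 in opossum.

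AMH, the hormone of the immature Sertoli cell (mouse chr10:80641077-80643482), was near the limit of detection. The mouse Sertoli-like class gave 4, 0 and 1 UMIs in replicates 1, 2 and 3, or 3.16, 0 and 1.57 CPM. Together these are 5 UMIs of 2121249, and spermatocytes, the next class, had 0.113 CPM on average. A count of 0 over the whole class would allow up to 1.41 CPM, taken as 3 UMIs. These limits cover counting error only.

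INHA, the inhibin alpha chain (mouse chr1:75482196-75489223, opossum chromosome 7), had 499, 351 and 347 CPM in the mouse Sertoli-like class (399 ± 86.5, SD, n = 3). The mouse Leydig-like class was close to it, with 343, 379 and 136 CPM, and the ranges overlapped. No other named mouse class exceeded a mean of 13.4 CPM. In opossum the same pair of classes led at a lower level: 51.0, 57.9 and 17 CPM in the Sertoli-like class (42.0 ± 21.9, SD, n = 3) and 31, 88.4 and 12.5 CPM in the Leydig-like class (44.0 ± 39.6, SD, n = 3). Opossum replicate 3 was the lowest in both.

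INHBB, the chain of inhibin B (mouse chr1:119343193-119350021, opossum chromosome 4), had 39.8, 17 and 103 CPM in the mouse Sertoli-like class (53.4 ± 44.7, SD, n = 3). The peritubular or stromal class followed with at most 9.63 CPM in a library. In opossum it gave 1 UMI of 6964105 in the Sertoli-like class. Its highest opossum class was spermatogonia, at a mean of 1.69 CPM, whose lowest library was at 0.

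INHBA, the chain of inhibin A and activin A (mouse chr13:16186373-16206206, opossum scaffold DS029321.1), had no UMI in any Sertoli-like library of either species, which allows up to 1.41 CPM in mouse and 0.431 CPM in opossum. It was a gene of the peritubular or stromal class instead, at 54.1, 50.2 and 10.1 CPM in mouse and 6.88, 10.3 and 4.23 CPM in opossum. Within that class 1 cluster of each species carried it. In mouse this was cluster 17 (75.5, 53.6 and 49.0 CPM), led by Dcn, while cluster 18, led by Acta2, Tagln and Myh11, had none. In opossum it was cluster 11 (38.9, 42.8 and 19.6 CPM), whose leading genes include SOST and ACTG2 and whose markers include MYH11.

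DHH (mouse chr15:98789033-98796439) had 50.2, 25.5 and 52.3 CPM in the mouse Sertoli-like class (42.7 ± 14.9, SD, n = 3). Elongating spermatids came next at 3.58 CPM, and within them cluster 15 had 15.4 ± 10.4 CPM (SD, n = 3). FSHR, the FSH receptor (mouse chr17:89292380-89508139, opossum chromosome 1), had 25.3, 13.8 and 117 CPM in mouse (52.1 ± 56.7, SD, n = 3), the second of these from 3 UMIs. No other mouse class exceeded a mean of 0.959 CPM. In opossum it had 66.8, 187 and 357 CPM (204 ± 146, SD, n = 3), against a mean of at most 3.83 CPM in any other named class. CLDN11, the barrier claudin (mouse chr3:31203900-31218495), had 536, 316 and 225 CPM (359 ± 160, SD, n = 3), and the next class had 7.60. DHH, FSHR and CLDN11 therefore shared with SOX9, WT1 and INHBB a lowest mouse Sertoli-like library above the highest library of every other named class. In opossum the same held for FSHR, SOX9 and WT1. For WT1 this holds for classes taken whole, since the unnamed mouse cluster and opossum cluster 20 given above had libraries above the lowest Sertoli-like one. The same limit applies to opossum SOX9, since unnamed cluster 4, described below, also had libraries above the lowest Sertoli-like one. The share of all genes that separate the Sertoli-like class in this way was not counted.

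**Figure D1:**
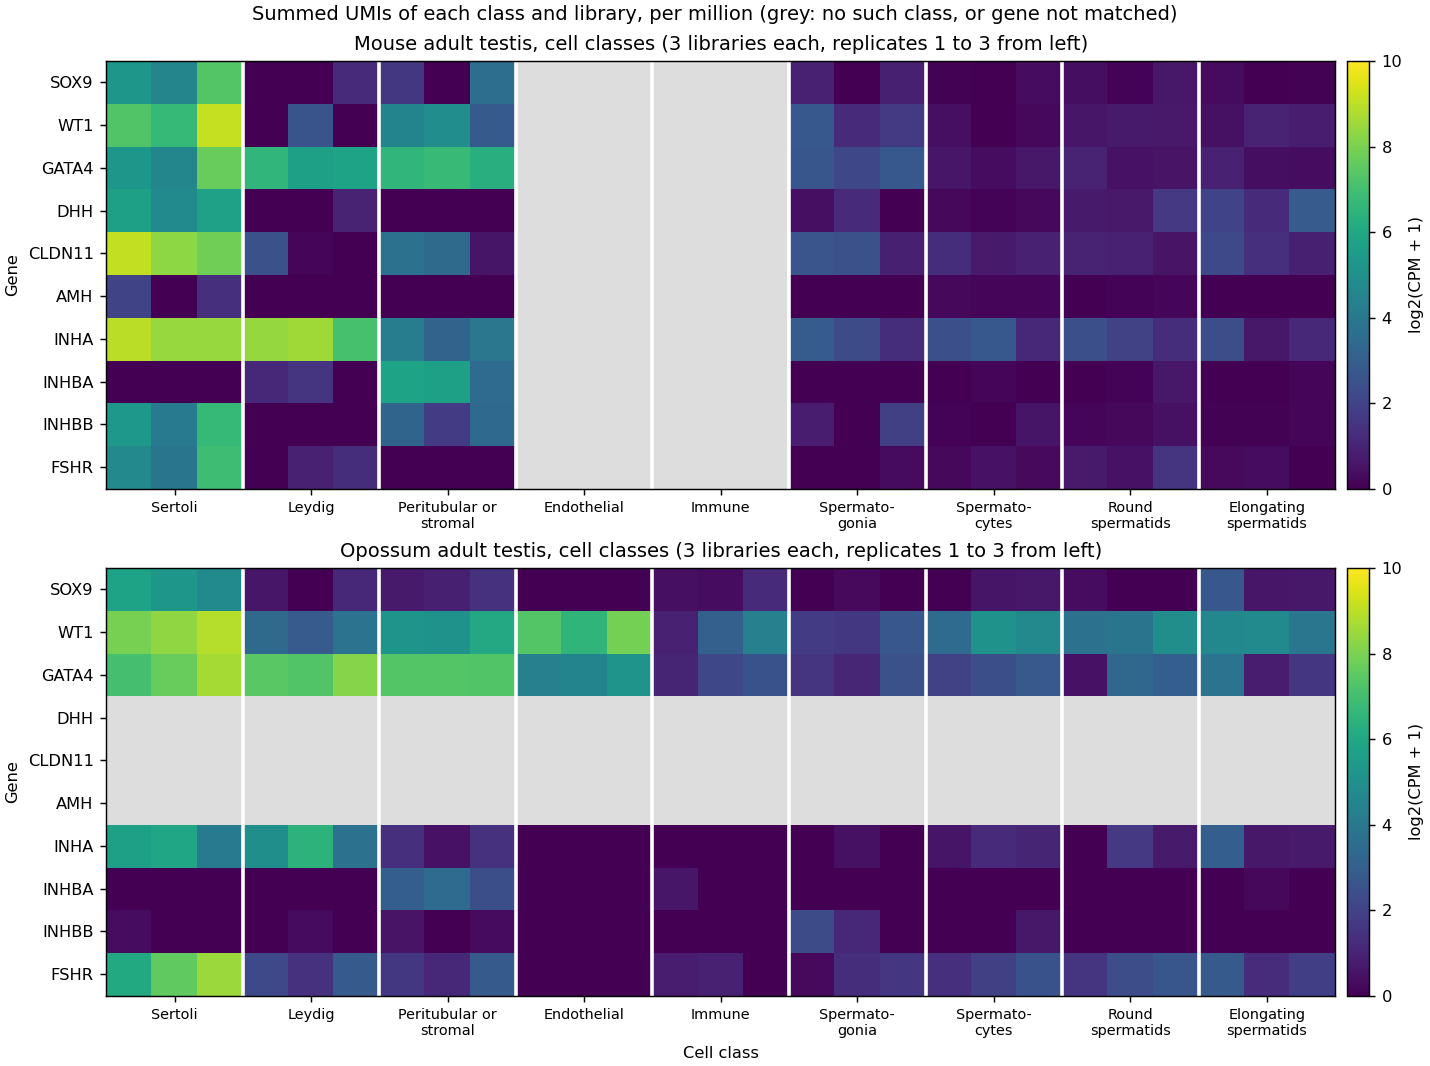
Heat map of log2(CPM + 1) for the 10 genes (rows) in each cell class and library (columns, replicates 1 to 3 from the left within a class), mouse above and opossum below; grey marks a gene not matched or a class not named in that species. CLDN11, DHH and FSHR stand out in the mouse Sertoli-like columns, INHA is shared with Leydig-like cells, GATA4 spreads over 3 somatic classes, and INHBA lies in the peritubular or stromal columns.

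The pair of opossum clusters named Sertoli-like differed in these genes, although neither was made with them. The small cluster 19 had 495, 654 and 512 CPM of FSHR in replicates 1, 2 and 3, and the large cluster 2 had 27.3, 33.4 and 45.9 CPM. GATA4 was 633, 581 and 552 against 85.6, 76.9 and 83.9 CPM, and WT1 was 757, 659 and 602 against 203, 215 and 211 CPM. The 3 genes were higher in cluster 19 in all 3 libraries, with no overlap. INHA went the other way, at 13.9, 16.8 and 4.23 CPM in cluster 19 and 54.4, 71.5 and 42.6 CPM in cluster 2. SOX9 was also lower in cluster 19, at 46.6, 14.1 and 10.5 against 56.1, 45.7 and 56.1 CPM. Values of replicate 3 rest on few UMIs in cluster 2 (2.94 for FSHR, 2.73 for INHA and 3.59 for SOX9) and, in cluster 19, for INHA (0.544) and SOX9 (1.35). The clusters were chosen for this display after their values were seen, and as clusters of the same cells they were not tested. The share of all genes that separate clusters 19 and 2 without overlap was not counted. Over the cells of all libraries together, median depths were 3099 UMIs per cell in cluster 19 and 2645 in cluster 2. Depth was not compared library by library.

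Another opossum cluster stayed unnamed but resembled cluster 2. Cluster 4 (1410 cells, 845, 431 and 134 per replicate, median 1357 UMIs) scored best for elongating spermatids, with 0 markers of that class past the rule, and shared RBP7 and ALAS2 among its leading genes with cluster 2. Its WT1 was 128, 157 and 197 CPM, its FSHR 23.3, 27.4 and 25.5 CPM and its INHA 35.1, 56.7 and 36.4 CPM. Each lay nearer to cluster 2 than to cluster 19, as did GATA4 (54.2, 71.2 and 36.3 CPM). SOX9 (32.1, 22.4 and 30.3 CPM) lay below cluster 2 in every library. By the difference in CPM it was nearer to cluster 19, but on the log scale its replicate 3 was nearer to cluster 2.

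**Figure D2:**
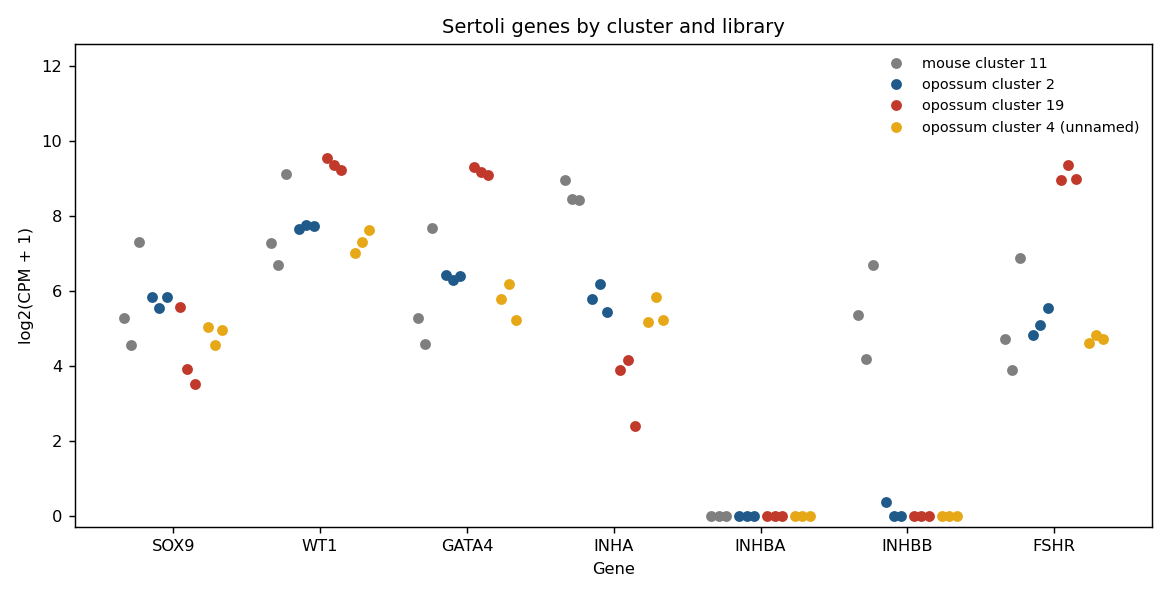
Levels as log2(CPM + 1) (vertical axis) of the Sertoli genes (horizontal axis) in the mouse Sertoli-like cluster and in opossum clusters 2, 19 and 4, 1 point per library. FSHR, GATA4 and WT1 sit highest in opossum cluster 19, at 495 CPM or more, while INHA sits highest in the mouse cluster.

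The species were then compared within a class by edgeR's quasi-likelihood test on the summed counts of 3 libraries against 3, over the genes with matched symbols. Genes that differed at least 2-fold with an adjusted p (Benjamini-Hochberg) under 0.05 were called. Of the 7 shared genes 6 could be tested in the Sertoli-like class, and INHBA did not pass the filter. INHA and INHBB were called, both lower in opossum, and none was called higher. INHBB passed the filter on low counts only through the mouse libraries, where it was high, so its direction was set by that filter and its call is given as a description. The 2 of 6 stand beside 42.4% of 5741 genes called in this class, 20.9% lower and 21.5% higher.

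INHA was lower in opossum by a log2 difference of -3.59 (SE 0.762, edgeR adjusted p = 0.00156), and its 3 opossum libraries lay below all 3 mouse libraries. How many of all genes separate the species in this way was not counted. Counted over the class, the mouse share of INHA was 8.30 times that of opossum (95% exact interval 7.35 to 9.39, counting error only). INHBB was lower with an adjusted p of 8.82e-05 by edgeR. Its fitted difference depends on the prior count, since opossum had 1 UMI and mouse 120, and the ratio of the shares was 394 (95% exact interval 69.4 to 15690). FSHR was higher in opossum by 1.67 (SE 0.777), with an edgeR adjusted p of 0.0952 and overlapping libraries, and was not called. With replicate number as a block it was 1.71 with an adjusted p of 0.0426, which is called (25.3% of genes were called higher with the block). It was also called with no filter on low counts (1.86, edgeR adjusted p = 0.0454) and at 500 or more UMIs per cell (2.14, 0.0357). Called higher were then 1894 of 10144 and 1586 of 6650 genes. GATA4 (1.21, SE 0.746), SOX9 (-1.005, SE 0.691) and WT1 (0.12, SE 0.683) had edgeR adjusted p-values of 0.205, 0.259 and 0.907. Their species ranges overlapped. GATA4 was higher in opossum in each of the 3 same-numbered pairs of libraries, and with the block it was 1.49 with an edgeR adjusted p of 0.0537. The share of all genes that are higher in opossum in each such pair was not counted.

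The values of FSHR and GATA4 turned on single libraries and on the cluster. Without mouse replicate 3, which had the highest Sertoli-like levels of both, FSHR was 2.63 and GATA4 2.33 higher in opossum, with edgeR adjusted p-values of 0.00559 and 0.00533 (58% of genes called). The labels of replicate 3 differ in form from those of replicates 1 and 2 in both species. Within replicates 1 and 2 FSHR was 2.13 and GATA4 1.96 higher, with edgeR adjusted p-values of 0.000111 and 0.00014 (61.8% of genes called), and replicate 3 alone gives no test. With cluster 19 as the only opossum Sertoli-like cluster, FSHR was 2.68 and GATA4 2.06 higher and SOX9 lower by a log2 difference of -2.28, all called (56.8% of genes were), whereas with cluster 2 alone FSHR was -0.77 and GATA4 -0.22, not called (45.8% of genes were). INHA and INHBB were called lower in each of these fits.

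In the Leydig-like class, where INHA and GATA4 could be tested, both were called (59.1% of 6513 genes were). INHA was lower in opossum by a log2 difference of -2.62 (SE 0.612, edgeR adjusted p = 0.00176) and GATA4 higher by 1.59 (SE 0.379, adjusted p = 0.00205). Neither overlapped between the species, and the share of all genes for which this holds was not counted. The opossum Leydig-like class was of 3 clusters that differed in both genes, with GATA4 at 411 ± 30.5 CPM in cluster 10 and 202 ± 50.6 in cluster 1 (SD, n = 3), and INHA at 2.64 ± 3.63 and 49.4 ± 39.3. The other cluster, 15, rested on 3 markers and held 414 of the 595 Leydig-like cells of replicate 1, with GATA4 at 30.5, 22.8 and 76.9 CPM and INHA at 30.6, 46.1 and 16.6 CPM. In the peritubular or stromal class 1 of 3 testable genes was called, beside 51.5% of 7182 genes. INHBA was lower in opossum by a log2 difference of -2.52 (SE 0.615, edgeR adjusted p = 0.00658). WT1 (1.19, SE 0.534) and GATA4 (0.70, SE 0.272) had adjusted p-values of 0.0837 and 0.0523. The WT1 difference turned to -1.82 among cells of at least 2000 UMIs (edgeR adjusted p = 0.04995). There the mouse class was a single cluster with the endothelial marker Cldn5 among its leading genes, and no other mouse cluster was led by endothelial markers. In the main setting the mouse cluster led by Cldn5, whose WT1 is given above, stayed unnamed and outside the class. The part of this in the turn was not tested. INHBA lay in 1 cluster of each species, which made up 441 of 664 mouse but 666 of 3500 opossum cells of the class. Without mouse replicate 1 its difference was -2.12 with an adjusted p of 0.0515.

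**Figure D3:**
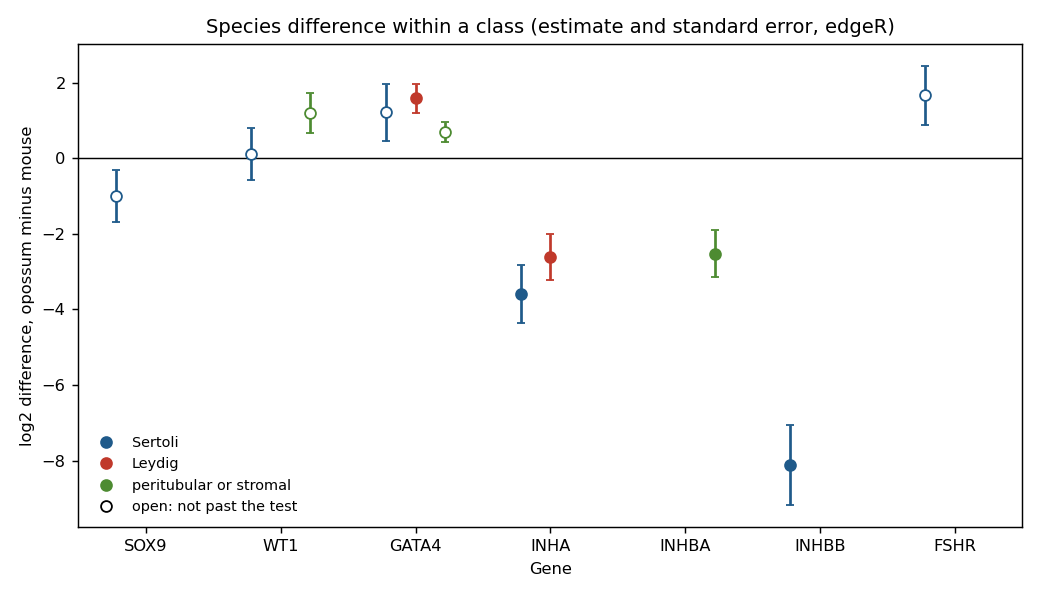
log2 difference, opossum minus mouse (vertical axis), for each shared gene (horizontal axis) in the Sertoli-like, Leydig-like and peritubular or stromal classes, with bars of 1 standard error and open points where the test was not passed. INHA is below 0 in both classes that carry it (-3.59 and -2.62), INHBB is lowest, and FSHR and GATA4 in the Sertoli-like class are open points above 0.

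Partners of these genes were counted in the same Sertoli-like test, against the same background of 42.4% of genes called. Of the 20 called genes of the lists, 11 reached the level that the filter on low counts asks for (22.2 CPM) in libraries of 1 species only. The direction of these 11 was set by the filter, and the counts are given as a description. DISP1, FSTL3 and PDE8A reached that level in 3 libraries of the species where they were higher and in 1 of the other, so the filter favoured their direction too. Of 11 tested partners of AMH, inhibin and activin, 3 were higher in opossum, all through opossum libraries only (the receptors ACVR2B and BMPR1B, and SMAD1), and 2 were lower. One of the latter was FSTL3, which binds and neutralises activins, at -2.97 (SE 0.762). Of 12 FSH signalling genes 1 was higher and 3 lower, among them GNAS, the G protein subunit coupled to FSHR, at -2.16 (SE 0.727). Of 8 genes of the tight junction and barrier list, which also holds other junction genes, 0 were higher and 4 lower. CTNNA1 (-1.90, SE 0.614) reached the level in both species, and CGNL1, ESPN and F11R only in mouse. Of 3 hedgehog genes 2 were higher, DISP1 (2.21, SE 0.804) and, through opossum only, HHIP. Of 6 testis-determining regulators DMRT1 was higher (3.58, SE 0.775), and SOX8 and FGFR2 were lower, both through mouse only. Of 6 hormone receptors THRB was higher through opossum only and RXRB lower through mouse only. Of 6 Sertoli reference genes, which also served to name the clusters, DMRT1 was higher and ESPN and SOX8 lower. The partners named in this paragraph were chosen after their values were seen.

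The course over ages was followed in whole opossum testis as TPM, which is scaled to all RNA of the testis. In such samples fewer cells of a type and less RNA per cell cannot be told apart. The makeup of the testis changed widely at the same time. The summed TPM of elongating-spermatid markers was 38.3 to 40.2 at 1 month, 52.1 to 697 at 2 months and 6311 to 10233 at 3 months, and that of peritubular or stromal markers was 2487 to 3451 at 1 month and 693 to 1661 at 2 months. A Sertoli reference list of other genes (8 named in the tables) summed to 1719 to 1807 TPM at 1 month, 580 to 2666 at 2 months, 514 to 752 at 3 months, 119 to 541 at 4 months and 395 to 969 in adults. GATM made up most of the fall from 1 to 3 months, with 1485 and 1559 TPM at 1 month and 252 to 384 at 3 months, whereas DMRT1 of the same list had 41.7 TPM in both 1-month libraries and 178 to 262 at 3 months. The part of these shifts in the changes given next was not tested. Values relative to the Sertoli reference list are no such test, since its genes went opposite ways and DMRT1 also served as a marker of spermatogonia. The share of all genes whose libraries separate the ages, as given next for single genes, was not counted.

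WT1 had 10.5 and 11 TPM at 1 month. At 2 months it had 54.6, 52.7, 68.5 and 56.5 TPM in replicates 1 to 4, and at 3 months 42.5, 58.9, 58.6 and 63.1. At 4 months it had 62.9, 46.4 and 0.29 TPM, the last in the library that stood apart, and in adults the lowest, median and highest values were 8.77, 57.4 and 84.5. All libraries of 2 and 3 months lay above both of 1 month, and the low values at later ages came from the 3 libraries that stood apart.

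GATA4 had 19.3 and 20 TPM at 1 month, 75.8, 43.1, 53.0 and 41.6 at 2 months and 30.8, 44.4, 42.8 and 43.4 at 3 months. At 4 months it had 71.3, 35.0 and 19.3 TPM, and adults ranged from 12.5 through a median of 44.5 to 63.2. Like WT1 it was higher at 2 and 3 months than at 1 month in every library. SOX9 did not follow. It had 49.2 and 49.9 TPM at 1 month, 123, 26.5, 35.3 and 31.9 at 2 months, 17.1, 27.8, 26.8 and 22 at 3 months, 39.0, 23.9 and 8.59 at 4 months, and a lowest, median and highest adult value of 8.28, 25.6 and 35.1. Every library of 3 months and older lay below both 1-month libraries. The ratio of SOX9 to WT1 combines both courses and would also fall with a rise of WT1 alone. Its log2 was 2.21 and 2.17 at 1 month and between -1.51 and -1.08 in the 3-month libraries. At 2 months it was 1.17 in the polyA library and -0.99 to -0.82 in the others. From 4 months on it was -1.39 to -0.69, except in the 3 libraries that stood apart, which had 4.48 (4-month replicate 3), -0.08 and 0.48 (adult replicates 1 and 3).

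INHA had 14.0 and 15.2 TPM at 1 month and 169, 21.7, 48.4 and 74.5 at 2 months, the age with the highest median (61.4). It had 11.6, 23.4, 21.8 and 19.8 TPM at 3 months, 58.0, 17.4 and 16.9 at 4 months, and 3.72, 17.5 and 25.4 as the lowest, median and highest adult values. All 2-month libraries lay above both 1-month libraries, and the only polyA library among them, replicate 1, was the highest. That library also had the highest sum of the Sertoli reference list (2666 TPM against 580 to 849 in the other 2-month libraries) and of Leydig markers (1144 against 468 to 680). Of the former sum 2440 TPM was GATM, an enzyme of creatine synthesis, while DMRT1, which keeps the male fate, was lower in that library than in the others of its age (80.9 TPM against 132 to 205). Mitochondrial genes took 19.7% of its TPM, against 8.75% to 11.4% in the others of its age, and over all genes its deviations from the age mean correlated with those of adult replicate 1, a library that stood apart (r = 0.62). The part of these differences in its SOX9 and INHA levels was not tested.

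INHBB was highest at 2 and 3 months. It had 0.466 and 0.499 TPM at 1 month, 2.33, 8.42, 10.2 and 22.8 at 2 months, 3.31, 3.89, 2.74 and 5.13 at 3 months, and 1.40, 0.694 and 0 at 4 months. Adults had at most 0.671 TPM, with 2 of 7 libraries listed at 0. All libraries of 2 and 3 months lay above every library of the other ages. At 2 months the rRNA-depleted libraries were higher than the polyA one, opposite to INHA. That polyA library (2.33 TPM) lay below all 3-month libraries, which are polyA too, whereas the depleted libraries lay above them. At 2 months the preparation and that single library cannot be told apart.

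FSHR showed no such course. It had 14.1 and 12.1 TPM at 1 month, 11.5, 12.3, 16.3 and 8.74 at 2 months, 11.1, 13.4, 15.5 and 13.4 at 3 months, 11.8, 13 and 0.123 at 4 months, and 6.63, 12.9 and 23.5 as the lowest, median and highest adult values, so that all ages overlapped. Its level should not be set beside those of other genes, because its deposited coverage per TPM was 0.0533 to 0.0563 of that of the median gene in the 20 libraries, a ratio below which only 1.98% to 3.39% of genes fell. INHBA was at 0 in all 20 libraries. It lies on an unplaced scaffold, and all 1557 genes on the 618 such scaffolds were at 0 in every library, so this 0 is no measurement of the gene.

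**Figure D4:**
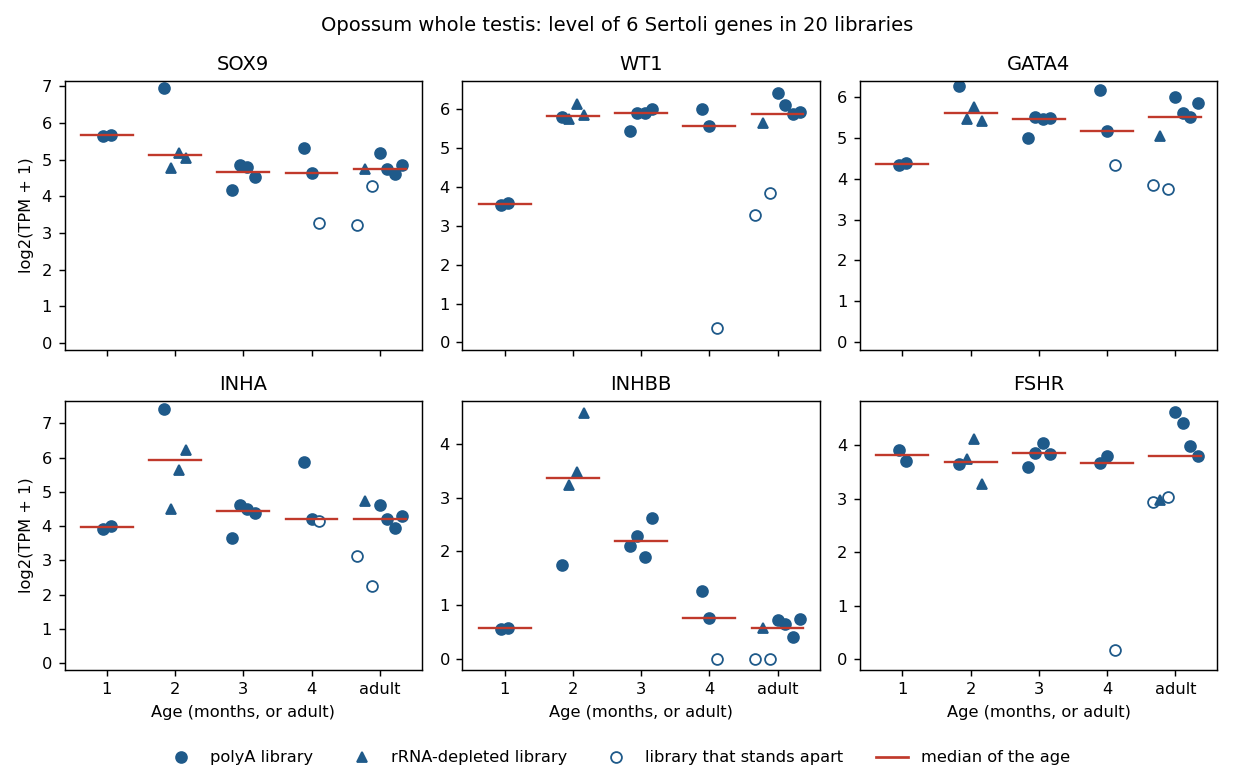
log2(TPM + 1) (vertical axis) of 6 genes in each of 20 opossum testis libraries by age in months or adult (horizontal axis); filled circles are polyA and triangles rRNA-depleted libraries, open circles are the 3 libraries that stood apart, and lines are medians of an age. INHBB is higher at 2 and 3 months (2.33 to 22.8 TPM) than at the other ages, WT1 and GATA4 step up after 1 month, SOX9 is lower from 3 months on, and the ages overlap for FSHR.

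Consecutive ages were tested with limma on log2(TPM + 1) over 19300 genes in all 20 libraries, with preparation as a term, and calls again needed an adjusted p (Benjamini-Hochberg) under 0.05 and a 2-fold difference. From 1 to 2 months 1 of the 6 testable genes was called, INHBB, which rose by 1.92 on the log2 scale (SE 0.561, limma adjusted p = 0.0335), beside 11.1% of all genes called and 7.22% called higher. INHA (2.28, SE 0.885), WT1 (2.12, SE 1.36) and GATA4 (1.63, SE 0.719) had larger or similar estimates and limma adjusted p-values of 0.11, 0.359 and 0.16. SOX9 was 0.41 (SE 0.702) and FSHR 0.18 (SE 0.903). INHBB was under 1 TPM in both 1-month libraries and passed the filter only through older ages where it was higher, so the call supports no count. It was also lost in other forms of the test. With no filter on low values its limma adjusted p was 0.0532, relative to the Sertoli reference list 1.43 with 0.143, and without 1-month replicate 1 or 2 it was 1.90 and 1.94 with 0.162 in each. The 16 polyA libraries hold 1 library of 2 months, which is then assumed to vary like the other ages, as is the 1 library left at 1 month in the fits just given. Among them INHBB was 1.17 with a limma adjusted p of 0.222, and INHA was called instead, at 3.45 with 0.0337.

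From 2 to 3 months 0 of 6 genes were called by limma, beside 23% of all genes. Of the 6, 2 had an unadjusted p under 0.05, against 7361 of 19300 genes in all. The 2 were INHA, at -1.95 (SE 0.778, limma adjusted p = 0.0751), and SOX9, at -1.48 (SE 0.617, adjusted p = 0.0863). Both depend on 2-month replicate 1, the only polyA library of that age. Without it INHA was -0.19 and SOX9 -0.16, with limma adjusted p-values of 0.966 and 0.961, and 141 of 19249 genes were called. The 2-month libraries of that fit are all rRNA-depleted, so preparation is estimated only within adults, from adult replicate 2. Preparation and age are then poorly separable at 2 months, and these estimates carry that limit. From 3 to 4 months 0 of 6 were called and 0% of all genes, with 1 gene at an unadjusted p under 0.05, which was INHBB at -1.55 (SE 0.409, limma adjusted p = 0.236). limma without a trend also called 0, and 1686 genes had an unadjusted p under 0.05 with the trend. From 4 months to adult 0 of 6 were called, beside 0.0259% of all genes, and 0 of the 6 had an unadjusted p under 0.05, against 1836 genes in all. Between adults and 1 month 0 of 6 genes were called by limma although 44.8% of all genes were, again with 0 of the 6 at an unadjusted p under 0.05, against 11088 genes in all. SOX9 was -1.03 (SE 0.542, limma adjusted p = 0.118), WT1 1.70 (SE 1.05, adjusted p = 0.18) and GATA4 0.77 (SE 0.555, adjusted p = 0.247), and INHA, INHBB and FSHR were -0.02, -0.27 and -0.08.

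These calls changed without the 3 libraries that stood apart, whose values enter the means of their ages and the spread estimated over all ages. The part of each in the changed calls was not tested. With them left out, a choice made after seeing the data, INHA (2.52, limma adjusted p = 0.0118), WT1 (2.45, 1.33e-05) and GATA4 (1.89, 0.000323) were called higher from 1 to 2 months, beside 23.4% of all genes. INHBB (1.98, limma adjusted p = 0.00961) was called too, with the limit from the filter given before. With 2-month replicate 1 as the only library left out, INHA was 0.51 with a limma adjusted p of 0.776. Preparation is estimated there from adult replicate 2 alone, as said above. A fit without all 4 libraries was not run. From 2 to 3 months INHA (-2.19, limma adjusted p = 0.0101) and SOX9 (-1.66, 0.00354) were called lower, beside 12.5% of all genes, both with 2-month replicate 1 in the fit. Between adults and 1 month WT1 (2.47, limma adjusted p = 3.12e-07) and GATA4 (1.38, 0.000215) were called higher, beside 43.4%. FSHR was called in none of these fits without the 3 libraries. With all 20 libraries centred on their medians, which takes the median of all genes from 0.59 to -0.59 between adults and 1 month, GATA4 was -0.41, so its direction there depends on the scaling. SOX9 (-2.21, limma adjusted p = 0.000425), INHBB (-1.45, 0.00772) and FSHR (-1.255, 0.0484) were called lower in adults with this centring, beside 35.5% of all genes. INHBB was under 1 TPM in every library of both ages.

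**Figure D5:**
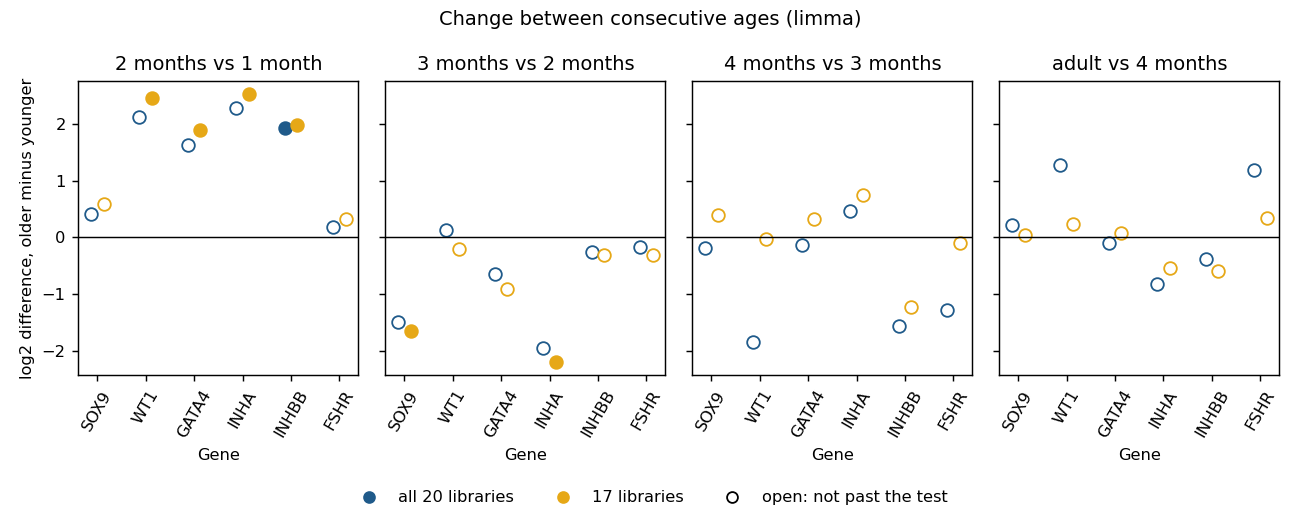
log2 difference between consecutive ages, older minus younger (vertical axis), of 6 genes (horizontal axis) with all 20 libraries and with the 17 left after removing those that stood apart; filled points passed the test and open points did not. From 1 to 2 months INHBB alone is called with 20 libraries, and INHA, INHBB, WT1 and GATA4 with 17.

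The other genes of these pathways are given for adults against 1 month, the widest contrast, where, without centring, 29.4% of all genes were called higher and 15.4% lower. In the Sertoli reference list 2 of 7 tested genes rose and 3 fell. NR5A1, a steroidogenic regulator, rose by 3.11 (SE 0.726) and DMRT1 by 2.08 (SE 0.638), while GATM was -1.99 (SE 0.502). Among 12 testis-determining regulators 2 rose and 5 fell, led by NR5A1, by ZFPM2, the cofactor of GATA4, at -2.55 (SE 0.431) and by FGF9 at -2.08. The list medians were -0.74 and -0.51, beside 0.59 for all genes.

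Of 15 partners of AMH, inhibin and activin 0 rose and 2 fell, the type I receptor ACVR1 at -1.98 and SMAD2 at -1.18. Of 14 FSH signalling genes 1 rose, PRKACA at 3.00, the catalytic subunit of protein kinase A, and 1 fell, PRKAR1A at -2.20, its regulatory subunit. Of 11 hedgehog pathway genes SUFU rose by 4.68 and HHAT was -1.14. Of 7 ovarian regulators 2 rose and 3 fell, with aromatase CYP19A1 at 3.50, BMP2 at -2.84 and the estrogen receptor ESR1 at -2.07. Of 10 tight junction and barrier genes 2 rose and 2 fell, with OCLN at 3.41, CGNL1 at -3.63 and CLDN1 at -3.0. Of 9 hormone receptors 1 rose and 3 fell, namely ESR1, NR2F2 at -1.88 and ESR2 at -1.88. CYP19A1 was under 1 TPM in both 1-month libraries, and HHAT and CLDN1 in all adult ones, so that they passed the filter only through other ages, as did 7 of the 27 called genes of these lists in all. Every gene named in these sentences passed limma at an adjusted p of 0.0307 or less. Without the 3 libraries that stood apart the counts of genes that rose and fell were 7 and 1 for the AMH and inhibin partners and 7 and 1 for FSH signalling. They were 5 and 1 for the hedgehog pathway genes, 6 and 3 for the hormone receptors and 4 and 4 for the testis-determining regulators. SMAD2 and TCF21 were no longer called. In that fit 43.4% of all genes were called higher and 15.5% lower. Genes such as SMAD7 (0.396 and 0.323 TPM at 1 month, at most 0.65 in the 3 libraries) were low both at 1 month and in the libraries left out.

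The direction of these counts depends on the scaling. With every library centred on its median 14.3% of all genes were called higher in adults and 35.5% lower. The genes that rose and fell were then 1 and 4 in the Sertoli reference list, 1 and 8 among the testis-determining regulators, 0 and 7 among the AMH and inhibin partners and 1 and 5 in FSH signalling. They were 1 and 3 among the hedgehog pathway genes, 1 and 5 each for the ovarian regulators and the tight junction and barrier genes, and 0 and 3 for the hormone receptors.

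The genes whose bulk levels followed each gene most closely, by Pearson's r of log2(TPM + 1) over the 16 polyA libraries, were PRMT1 for INHA (0.972), CHST13 for INHBB (0.916), KITLG for FSHR (0.968), ZFR for SOX9 (0.954), RGS19 for WT1 (0.992) and RNF111 for GATA4 (0.978). The next were METTL3 and SPNS1 for INHA, IDH1 and CDH4 for INHBB, MBNL2 and L3MBTL3 for FSHR, NAA25 and PPP1R7 for SOX9, ENSMODG00000037426 and MAU2 for WT1, and ENSMODG00000001350 and PFAS for GATA4. The libraries share ages and cell makeup, so these are descriptions. Without the 3 libraries that stood apart KITLG and FSHR had r = 0.614 over 13 libraries, and RGS19 and WT1 had 0.968. Among the genes themselves WT1 and GATA4 had r = 0.782 and 0.861 with and without those libraries, and WT1 and FSHR 0.867 and 0.342.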

How the data were processed

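The authors deposited 6 single-cell matrices of estimated counts of UMIs, most of which are not whole numbers. Per the submitters' processing notes Cell Ranger 6.0.1 was among the tools, and the step that made the values is not given in the sources used here. Per the file headers the 20 bulk tables hold the authors' TPM, FPKM and mean read coverage (signal) per gene, and the notes name HISAT2 2.2.1, SAMtools 1.12 and StringTie 2.1.4. The notes give a mouse build also for opossum, and the bulk tables name none, so that opossum positions are given by chromosome only. The number of bulk reads is unknown, and no counting interval is given for TPM.

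Cells needed 1000 UMIs and 500 genes, and the 8% with the highest Scrublet scores in each library were removed as possible doublets, since the automatic threshold marked at most 1.77%. Each species was clustered with scanpy 1.11.5 (2000 variable genes, 30 components, Leiden resolution 1) without the 10 genes. A cluster took the name of 1 of 9 classes from preset markers, with at least 3 of them at 1.5-fold and 5 CPM. It also stayed unnamed where another class had more markers among the 10 leading genes of the cluster. In mouse 3799 and in opossum 2345 cells stayed unnamed. Counts were summed per class and library over at least 20 cells and rounded to whole numbers, and species were compared over symbols found once in each (10751) with edgeR 4.0.16 (TMM, filterByExpr). Between 1.66% and 6.49% of matrix entries are listed at 0, and such an estimate is not proof that the gene had no UMI. Same-numbered mouse and opossum libraries deviated together in the Sertoli-like class (r = 0.192, 0.199 and 0.316), so the value with the replicate block is given where it changes a call.

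Bulk values were log2(TPM + 1) of genes that reached 1 TPM in 2 or more libraries, fitted with limma 3.58.1 (trend, age and preparation). Both fits were tested on simulated data. The text names all 10 genes, up to 3 called genes per list with the largest difference between adults and 1 month, and the 3 genes of highest correlation with each. The 10 genes and the lists were chosen with earlier results of these data known, and the clusters shown singly and the libraries left out were chosen after seeing the data. Alternatives are given under the dependence on processing.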

Additional observations from a re-analysis of the deposited data

Results flagged for a closer look

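The 18 groups of 4 to 7 bulk libraries formed by the genes and ages were searched for a library whose gap to its nearest neighbour took up more of the group's range than Dixon's 95% critical value, and 2 were found. Chance gives about 1 in 20. The SOX9 level of 2-month replicate 1, the only polyA library of that age, was 122.9 TPM, with a gap of 0.908 of the range to the other 3 libraries, which had 26.5 to 35.3. The GATA4 level of 3-month replicate 1 was 30.8 TPM, with a gap of 0.887 of the range, below 42.8 to 44.4 in the others.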

How the results depend on the processing

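Opossum classes rest on fewer named markers than mouse classes, the mouse Sertoli-like class of replicate 2 on 147 cells, and bulk levels on 1 polyA library at 2 months, so that preparation and age are only partly separable there. A level under the value of 3 UMIs was not detectable at this depth. The causes of the shifts given next were not tested.

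From 1 to 2 months 1 gene was called, 0 with a pseudocount of 0.1, no filter on low values, median centring, values relative to the Sertoli reference list or the replicate block, 1 in the polyA libraries (INHA in place of INHBB), 2 without the preparation term, 4 without the 3 libraries that stood apart, and 0 to 1 when leaving out 1 library at a time. From 2 to 3 months 0 were called, 2 with the deposited FPKM, 2 in the polyA libraries, 1 without the preparation term, 3 with median centring, 1 without 4-month replicate 3, 2 without the 3 libraries, and 0 to 1 when leaving out 1 library. Between adults and 1 month 0 were called. Called lower in adults were 1 with FPKM (SOX9) and 3 with median centring (SOX9, INHBB and FSHR), beside 3437 of 17510 and 6846 of 19300 genes. Called higher were 1 relative to the Sertoli reference list and 1 without 4-month replicate 3 (WT1 in each), and 2 without the 3 libraries (WT1 and GATA4). Beside them 6528 of 19300, 6331 of 19176 and 8247 of 18997 genes were called higher. The other 2 contrasts stayed at 0 in every setting run. In the Sertoli-like class 2 genes were called between species, INHA and INHBB. The direction of INHBB was set by the filter, as said above, so counts that include it are given as a description. The count was 3 with no filter on low counts or at 500 or more UMIs per cell, where FSHR was added. It was 1 at 2000 or more UMIs per cell, where INHBB could not be tested. Replicates 1 and 2 alone gave 4, opossum cluster 19 alone 5, and leaving out 1 library 2 to 4. The Leydig-like count of 2 of 2 tested was 5 of 7 with no filter on low counts, 3 higher and 2 lower (4851 of 10226 genes called). It was 3 of 3 with counts rounded up (4209 of 7062 genes) and at 500 or more UMIs (3987 of 6778), and 2 to 3 when leaving out 1 library. The peritubular or stromal count of 1 of 3 tested was 3 of 7 with no filter (4365 of 10282 genes called) and 3 of 4 with counts rounded up (4009 of 7412). It was 2 of 2 at 2000 or more UMIs (2489 of 4801 genes) and 1 to 2 when leaving out 1 library. WT1 there turned from 1.19 to -1.82 at 2000 or more UMIs (edgeR adjusted p = 0.04995), where the makeup of the mouse class also changed. At that depth the mouse Sertoli-like levels of DHH and INHA were 27.4 and 290.9 CPM. Among the bulk values of single genes, 255 kept their sign and their side of the threshold when 1 choice was changed, 24 became called, 6 were no longer called and 33 changed sign without a call.

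With the replicate block, the bulk counts were 0 in all 5 contrasts, and the species counts 3, 2 and 1 in the Sertoli-like, Leydig-like and peritubular or stromal classes. The block changed no other call than those of INHBB from 1 to 2 months (1.55, limma adjusted p = 0.121) and of FSHR between species. Bulk numbers share only a number: of 29 same-numbered pairs 7 correlated above 0.1, from -0.285 to 0.672.

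Over all genes, 2142 were called from 1 to 2 months, 65.1% of them higher. This became 1074 in the polyA libraries, 5156 without the preparation term, 1006 with the block, 582 without 1-month replicate 2, 608 without 1-month replicate 1, 1043 without 2-month replicate 1 and 5812 without the 3 libraries, and the share higher became 28.2% with median centring, 52.6% relative to the Sertoli reference list and 77.8% with a pseudocount of 0.1. From 2 to 3 months 4440 were called, 65.05% higher, which became 2804 with the block, 141 without 2-month replicate 1 and 6993 without the 3 libraries, and the share higher 33.05% with median centring, 50.4% with FPKM and 96.98% relative to the Sertoli reference list. From 3 to 4 months 0 became at most 33, and from 4 months to adult 5 became 0 to 127. Between adults and 1 month 8647 became 5438 and 5515 without either 1-month replicate, and the share higher went from 65.7% to 28.7% with median centring. That centring shifted the median of all genes from 0.39 to -0.47 and from 0.24 to -0.45 in the first 2 contrasts. In the Sertoli-like class 2432 genes became 3705 with no filter, 1411 at 2000 or more UMIs, 3860 without mouse replicate 3 and 4480 in replicates 1 and 2.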
